A study of Mus musculus with 6 samples.

Results

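The genes described here are 35 genes of the Hippo pathway and of its transcriptional output, chosen by name: 20 genes of the pathway core (YAP and TAZ, their TEAD partners and VGLL cofactors, the kinases, and the junction proteins upstream) and 15 genes listed as YAP targets. The genes were chosen with earlier results of these data known. All 35 were found among the 24940 genes of the deposited table, and all 35 passed the filter on low counts, which left 13357 genes. They were measured in primary hepatic stellate cells, the pericytes of the liver sinusoid that store vitamin A and turn into matrix-producing myofibroblasts after injury or in culture. The cells were isolated from wild-type female mice of the strain C57BL/6JBomTac. Their age is not stated in the labels. The forskolin group (Fsk, 3 libraries) was given 5 µM forskolin 2 days after isolation. Forskolin is a plant compound that turns on adenylyl cyclase, the enzyme that makes cyclic AMP. The vehicle group (Ctrl, 3 libraries) was given an equal volume of dimethyl sulfoxide. Medium was replaced after 3 h in both groups and RNA was collected after another 21 h, 24 h from the start. Replicates are lettered A, B and C in both groups. No label says whether they are separate mice or separate cultures, so p-values measure only how far these libraries scatter, and that scatter may be technical.

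In the Hippo pathway the kinases MST1 and MST2, with their adaptor SAV1, activate the kinases LATS1 and LATS2, with their adaptor MOB1. The LATS kinases phosphorylate the coactivators YAP and TAZ, which then stay in the cytoplasm or are degraded. Unphosphorylated YAP and TAZ enter the nucleus and bind the TEAD transcription factors on DNA. Cell spreading and actin tension favour nuclear YAP and TAZ, and protein kinase A, the main effector of cyclic AMP, is known to activate the LATS kinases. In stellate cells, YAP is known as a driver of the myofibroblast state. Several YAP targets, such as LATS2 and AMOTL2, restrain YAP in turn. Messenger RNA levels, the only quantity measured here, do not report the phosphorylation or location of YAP and TAZ.

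Promoter sequence was read for the members because TEAD factors bind a short motif, GGAATG, and cyclic AMP acts through a response element, TGACGTCA, whose core is TGACG. A window of 250 bases before to 50 after the transcription start was found in RefSeq for 26 of the 35 genes (build GRCm38.p6, the same coordinates as mm10). None was found for Tead1, Tead4, Stk3, Ccn2, Nuak2, Fjx1, Dock5, Ccdc80 and Asap1. The TEAD motif stood on either strand in 15 of 26 member windows (57.7%), against 14.7% of the 32851 windows of all genes. In the 250 bases before the start alone it stood in 14 of 26 (53.8%), against 12.6% of all windows. The windows of 6 members are printed. Those of Ccn1, Ankrd1, Ajuba and Amotl2 carry the TEAD motif and belong to genes that were lower with forskolin. Those of Foxf2 and Rbms3 lack it and belong to the 2 target genes that were higher. The windows printed are examples and do not show a rule. The lower genes Amot, Amotl1, F3 and Myof lack the motif, and Lats2, also lower, has it only after the start. Mob1a, which was higher, and Tead3, Sav1 and Axl, which did not pass the test, carry it. Each window printed runs 5′ to 3′ on the gene's own strand over the 250 bases before the start. Capitals mark GGAATG or its reverse complement CATTCC, and TGACG or its reverse complement CGTCA.
Ccn1, chr3:145649986-145650235 (minus strand): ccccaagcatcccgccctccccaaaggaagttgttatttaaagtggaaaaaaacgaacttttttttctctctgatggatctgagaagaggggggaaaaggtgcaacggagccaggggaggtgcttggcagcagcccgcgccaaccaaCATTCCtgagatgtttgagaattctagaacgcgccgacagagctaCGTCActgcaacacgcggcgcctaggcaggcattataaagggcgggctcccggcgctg
Ankrd1, chr19:36119845-36120094 (minus strand): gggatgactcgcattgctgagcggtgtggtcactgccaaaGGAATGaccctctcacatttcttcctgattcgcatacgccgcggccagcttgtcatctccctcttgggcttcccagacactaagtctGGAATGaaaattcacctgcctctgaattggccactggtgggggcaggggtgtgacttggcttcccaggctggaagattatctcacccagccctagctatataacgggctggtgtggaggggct
Ajuba, chr14:54577662-54577911 (minus strand): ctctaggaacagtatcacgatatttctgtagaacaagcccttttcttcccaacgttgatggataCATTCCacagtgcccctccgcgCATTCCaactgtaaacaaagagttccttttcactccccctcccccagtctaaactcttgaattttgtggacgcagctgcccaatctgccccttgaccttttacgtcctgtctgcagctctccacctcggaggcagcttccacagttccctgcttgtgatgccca
Amotl2, chr9:102717554-102717803 (plus strand): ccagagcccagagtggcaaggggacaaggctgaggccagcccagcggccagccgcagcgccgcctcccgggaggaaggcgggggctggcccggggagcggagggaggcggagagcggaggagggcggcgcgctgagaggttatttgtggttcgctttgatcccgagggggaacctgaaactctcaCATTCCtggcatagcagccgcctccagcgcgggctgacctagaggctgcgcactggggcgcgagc
Foxf2, chr13:31625566-31625815 (plus strand): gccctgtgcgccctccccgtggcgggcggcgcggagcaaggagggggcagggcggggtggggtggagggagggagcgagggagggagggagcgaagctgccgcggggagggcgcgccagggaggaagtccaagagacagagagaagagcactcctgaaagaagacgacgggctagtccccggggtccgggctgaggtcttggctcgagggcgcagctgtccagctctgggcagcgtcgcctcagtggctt
Rbms3, chr9:117252484-117252733 (minus strand): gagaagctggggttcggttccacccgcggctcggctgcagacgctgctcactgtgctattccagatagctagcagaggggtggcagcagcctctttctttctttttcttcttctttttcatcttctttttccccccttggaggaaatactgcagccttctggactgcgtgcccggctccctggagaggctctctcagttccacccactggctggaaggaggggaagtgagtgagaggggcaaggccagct

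Ccn1 had 1 TEAD motif, beginning 103 bases before the start on the opposite strand, and 1 TGACG core, beginning 58 bases before it. Ankrd1 had 2 TEAD motifs, at 210 and 123 bases before the start, both on the gene's own strand. Ajuba had 2 on the opposite strand, at 186 and 164 bases, and Amotl2 had 1 on the opposite strand at 65 bases. The TEAD motif was also found in the upstream windows of Yap1 and Wwtr1 themselves, at 141 and 170 bases before the start. By call, the whole windows of 11 of 15 members lower with forskolin held it (73.3%), those of 1 of 4 members higher (25.0%) and those of 3 of 7 members that did not pass (42.9%). In the bases before the start alone it stood in 10 of 15 lower members (66.7%), without Lats2. The groups of windows are small and the genes were chosen as parts of one pathway, so these shares are a description. The full response element TGACGTCA stood in 0 of 26 member windows and in 1.8% of all windows, and the core TGACG in 5 of 26 (19.2%) and in 20.8% of all. By call, the core TGACG stood in 5 of 15 members lower with forskolin (33.3%), 0 of 4 higher and 0 of 7 that did not pass. The TGACG core and the TGACGTCA element overlap, and neither overlapped a TEAD motif in the windows printed. A match of letters is not evidence of binding. The RefSeq window of Vgll4 starts 47382 bases from the transcript counted in the deposited table and that of Vgll3 444 bases away, so both describe another start than the one counted. Both are among the 11 lower members whose window held the TEAD motif.

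At 24 h after the start of forskolin, 21 of the 35 genes were lower than with vehicle, 6 were higher and 8 did not pass the test (edgeR quasi-likelihood test, Benjamini-Hochberg adjusted p under 0.05 over all genes tested). In the same comparison 25.1% of all genes tested were lower and 24.8% were higher. The share of members that were lower, 60.0%, was above that background, and the share that were higher, 17.1%, was below it. The members are mostly well expressed genes, and the test has more power where counts are high. Among the 6679 genes above the median level per kilobase of exon, 29.0% were lower and 26.6% higher. Of the 29 members above it, 17 were lower (58.6%) and 4 were higher (13.8%). That split follows level per kilobase, so it does not match genes by their counts. The median log2 fold change of the members was −0.21, against 0.01 for all genes tested, whose middle 50% ran from −0.22 to 0.22. Changes were mostly small. A decrease of at least 1.5-fold that passed the test was found for 7 members, against 8.30% of all genes, and an increase of that size for 3 members, against 7.09% of all genes. All 3 forskolin libraries lay below all 3 vehicle libraries for 20 members, against 28.4% of all genes, and above them for 6 members, against 28.9% of all genes. In bulk RNA, fewer cells of one type and less RNA per cell cannot be told apart.

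**Figure D1:**
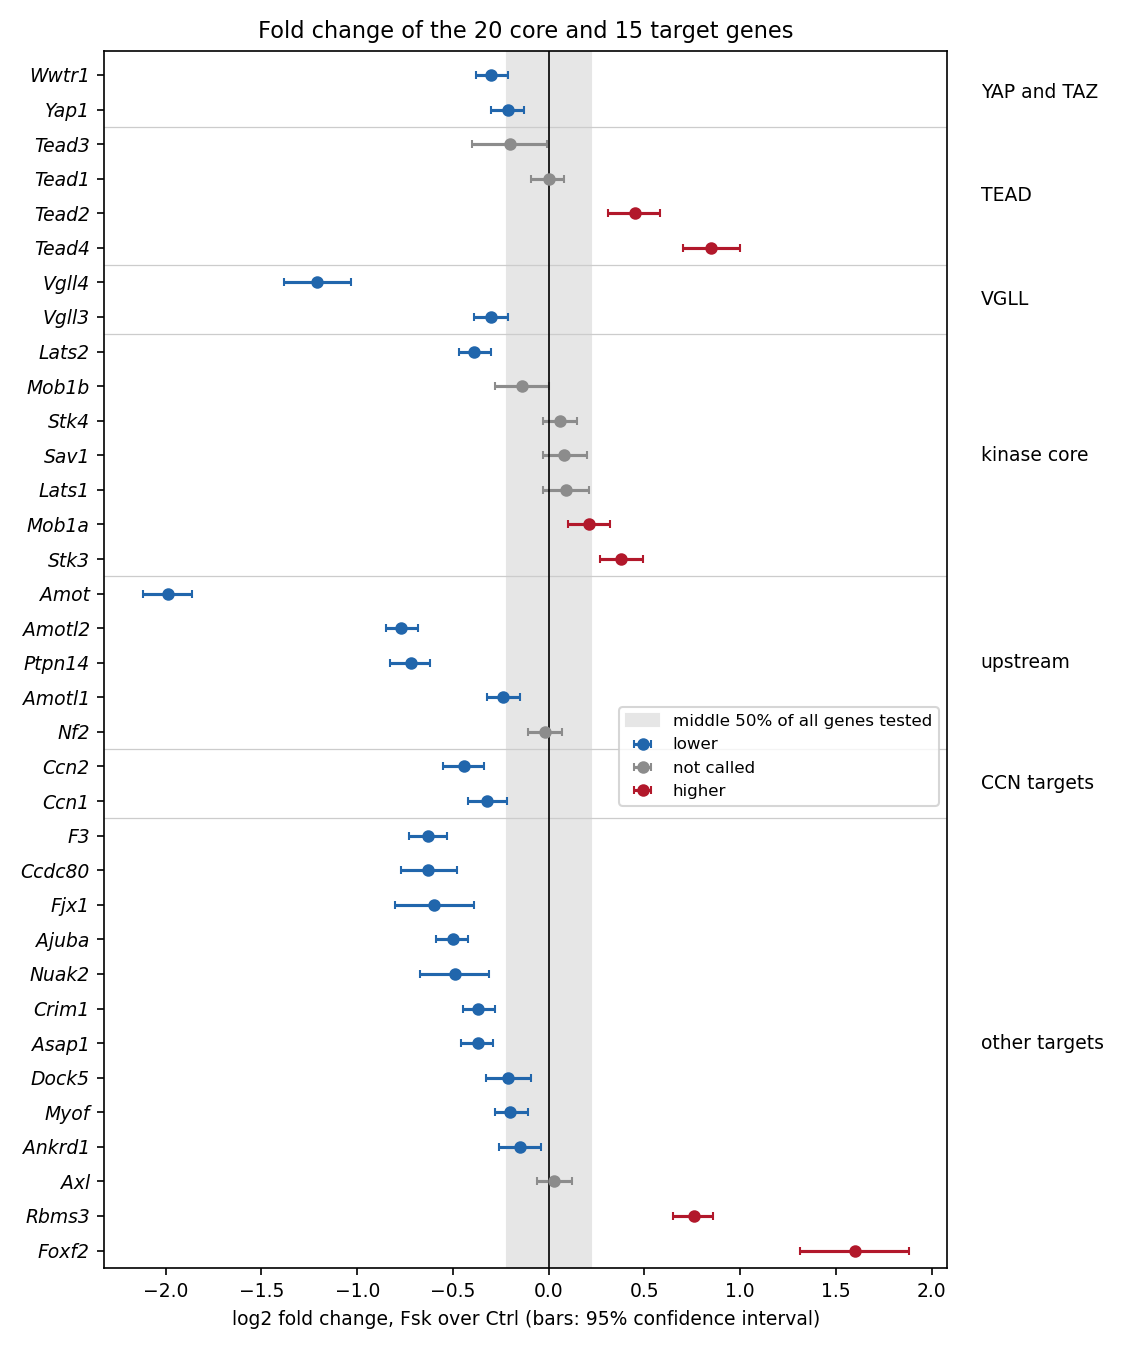
Log2 fold change of forskolin over vehicle (x axis) for each of the 35 genes, ordered by role, with the 95% confidence interval of the fit as bars. Blue genes were lower and red genes higher at an adjusted p under 0.05, grey genes did not pass, and the grey band holds the middle 50% of all genes tested, −0.22 to 0.22. Amot at −1.99 and Foxf2 at 1.60 lie farthest from 0 on either side.

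Vehicle libraries were deeper (13001358 to 15090262.5 counts) than forskolin libraries (10890193 to 12954310 counts), so depth moves with the groups, and values with log2 library size as a term are given beside the results that it turns or moves by over 1.5 times. Levels are in CPM, the library-scaled count, on library sizes adjusted by edgeR's TMM factors, and levels of different genes are compared only as CPM per kilobase of exon. The label of the cells was checked against markers: all 12 stellate cell markers listed were counted in every library, summing to 2594 to 2766 CPM with vehicle and 2886 to 2933 CPM with forskolin. Of these 12, 7 rose, among them Hgf (198 ± 7.01 to 401 ± 11.7 CPM), and 3 fell, among them Des (323 ± 7.37 to 182 ± 20.8 CPM) and Pdgfrb (381 ± 16.6 to 282 ± 7.99 CPM). Of 10 hepatocyte markers 9 were under 1 CPM in each library, with Serpina1a, Cyp3a11 and Fgb at 0, and Apoa2 was the exception (list sum 4.17 to 4.57 CPM with vehicle and 4.65 to 5.21 with forskolin). All 6 lymphocyte markers were under 1 CPM, with Nkg7 at 0, and 7 of 10 macrophage markers were too (list sum 34.8 to 36.8 and 38.0 to 39.1 CPM). Of the sinusoidal endothelial list, Clec4g, Pecam1, Cdh5 and Oit3 were under 1 CPM, and the sum of the 10 genes, 211 to 222 CPM with vehicle and 96.5 to 98.5 CPM with forskolin, was mostly Flt4. Of the cholangiocyte list, Krt7, Epcam and Cftr were under 1 CPM. Its sum was 138 to 153 CPM with vehicle and 392 to 428 CPM with forskolin, mostly through Spp1. Its 4 tested genes divided: 2 rose, Spp1 (72.5 ± 3.63 to 372 ± 22.6 CPM) and Sox9. The other 2 fell, Krt19 (71.3 ± 4.83 to 35.1 ± 4.38 CPM) and Tm4sf4. Of the 10 mesothelial and portal fibroblast markers, Msln, Upk3b and Krt8 were under 1 CPM, and the list summed to 30.0 to 32.9 CPM with vehicle and 39.0 to 43.1 CPM with forskolin. Within it Thy1 rose from 0.650 ± 0.145 to 4.95 ± 1.21 CPM and Cd34 from 3.86 ± 0.212 to 19.6 ± 5.36 CPM, while Gas6 fell from 22.1 ± 1.58 to 12.2 ± 1.28 CPM (adjusted p = 2.32e-07, 6.11e-09 and 2.57e-06). The vascular smooth muscle list, which shares contractile genes with activated stellate cells, was lower for 7 of 7 genes and summed to 893 to 900 CPM with vehicle and 729 to 810 CPM with forskolin. The part of any of these lists in the results below was not tested.

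Both coactivators fell by a small amount. Yap1, which encodes YAP, stood at 296, 295 and 295 CPM in vehicle A, B and C and at 251, 253 and 262 CPM in forskolin A, B and C. The groups did not overlap, and Yap1 fell by 0.21 on the log2 scale (SE 0.0395, adjusted p = 2.20e-04), a mean of 296 ± 0.649 CPM against 255 ± 6.28 CPM (SD, n = 3 each). Wwtr1, which encodes TAZ, stood at 247, 234 and 246 CPM with vehicle and at 194, 199 and 199 CPM with forskolin. It too was lower in all 3 forskolin libraries and fell by 0.30 (SE 0.0411, adjusted p = 9.20e-06). Per kilobase of exon the pair summed to 122 ± 1.54 CPM with vehicle and 103 ± 1.93 CPM with forskolin, and Yap1 made up 58.2% ± 0.699 of that sum with vehicle and 59.6% ± 0.464 with forskolin. Neither decrease passed a test against a 1.2-fold change.

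The 4 TEAD genes, which encode the DNA-binding partners of YAP and TAZ, divided. Tead4 rose 1.81-fold, from 23.3, 23.4 and 24.8 CPM in the vehicle libraries to 42.1, 43.6 and 43.4 CPM in the forskolin libraries (log2 fold change 0.85, SE 0.0718, adjusted p = 1.52e-08). Tead2 rose from 56.2, 59.2 and 54.8 CPM to 74.2, 73.2 and 84.7 CPM (0.45, SE 0.0632, adjusted p = 1.18e-05). In both genes each forskolin library was above each vehicle library. Tead1, the most abundant of the 4, did not pass (569 ± 16.0 and 567 ± 8.20 CPM), and the 95% interval of its log2 fold change ran from −0.09 to 0.08. Tead3 did not pass either (40.5 ± 5.77 and 35.2 ± 2.77 CPM, adjusted p = 0.0740), with an interval from −0.40 to −0.01. Its vehicle libraries spread from 35.9 to 47.0 CPM, and its value rested on single libraries: the log2 fold change was −0.28 without vehicle A (adjusted p = 0.0260), −0.26 without forskolin C (0.0250), −0.15 without forskolin A (0.181) and −0.08 without vehicle B, its highest (0.501). With log2 library size as a term it was 0.02 (0.908), so no direction is given for Tead3. Per kilobase of exon the TEAD genes summed to 107 ± 4.61 CPM with vehicle and 121 ± 3.83 CPM with forskolin. Within that sum the share of Tead1 went from 53.4% to 47.3%, that of Tead2 from 24.7% to 29.9%, that of Tead3 from 14.5% to 11.2% and that of Tead4 from 7.28% to 11.6%. None of these shares overlapped between the groups, and each gave an exact two-sided permutation p of 0.1, the smallest that 3 libraries against 3 allow.

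The VGLL proteins compete with YAP and TAZ for TEAD or join TEAD in their place. Vgll4, which encodes a TEAD-binding repressor of YAP output, stood at 75.1, 78.2 and 69.3 CPM with vehicle and at 37.6, 31.4 and 28.0 CPM with forskolin. It fell by 1.21 on the log2 scale (SE 0.0830, adjusted p = 9.44e-10), 2.29-fold, with no overlap. Vgll3, another TEAD cofactor gene of this family, was the more abundant of the pair per kilobase with vehicle (84.7 against 26.3 CPM per kilobase). Its level was 285, 276 and 284 CPM in the vehicle libraries and 235, 233 and 218 CPM in the forskolin libraries, a log2 fold change of −0.30 (adjusted p = 1.11e-05).

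Among the 7 genes of the kinase cassette, 1 was lower (14.3%), 2 were higher (28.6%) and 4 did not pass. The shares lower and higher over all genes tested were 25.1% and 24.8%. Lats2 stood at 589, 592 and 606 CPM with vehicle and at 457, 453 and 458 CPM with forskolin. It encodes the LATS kinase whose gene is itself a YAP target, and it fell by 0.39 (SE 0.0387, adjusted p = 1.65e-07). Lats1 did not pass (115 ± 5.99 and 122 ± 8.98 CPM, interval −0.03 to 0.21, adjusted p = 0.213), though without forskolin C, its lowest forskolin library at 112 CPM, it was higher (0.15, adjusted p = 0.0198), and without forskolin B its log2 fold change was 0.04 (0.647). With log2 library size as a term it was 0.17 (0.146). Lats2 made up 87.9% ± 0.602 of the LATS sum per kilobase with vehicle and 83.9% ± 1.06 with forskolin (exact permutation p = 0.1), and the sum went from 131 ± 1.82 to 105 ± 0.898 CPM. Only 43.5% of the 50-base stretches of the Lats2 transcript occur in no other annotated gene, counting both strands. The rest are shared with the gene model Gm49361, whose position and strand were not checked, so the Lats2 count could include reads of either.

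Of the MST kinases, Stk3, which encodes MST2, rose from 72.0 ± 3.65 to 93.4 ± 2.41 CPM (0.38, SE 0.0529, adjusted p = 1.05e-05). Stk4, which encodes MST1, did not pass (151 ± 4.45 and 157 ± 3.06 CPM, interval −0.03 to 0.15). The share of Stk3 in the pair per kilobase was 46.6%, 45.0% and 46.4% with vehicle and 52.1%, 50.9% and 51.5% with forskolin, so the larger share was that of Stk4 in each vehicle library and that of Stk3 in each forskolin library (exact permutation p = 0.1). Mob1a, the more abundant gene for the LATS adaptor MOB1, rose from 88.5 ± 0.285 to 102 ± 6.15 CPM (0.21, adjusted p = 0.00263). Its paralogue Mob1b did not pass (56.9 ± 2.20 and 51.6 ± 4.25 CPM, interval −0.28 to 0.00), and without forskolin B it was lower (−0.19, adjusted p = 0.0480), while without forskolin C its log2 fold change was −0.07 (0.343). Sav1, the gene of the MST adaptor, did not pass (91.1 ± 3.64 and 96.5 ± 5.89 CPM, interval −0.03 to 0.20). Its count is uncertain, since only 48.0% of its 50-base stretches occur in no other gene, counting both strands, and the others are shared with Atl1. In the deposited table Sav1 overlaps Gm3086, on the opposite strand, over 4732 bases (44 counts in all libraries together). No source used here states that strand was kept.

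The largest decrease among the 35 genes was that of Amot. Of the 5 genes of the upstream group 4 fell (80.0%, against 25.1% of all genes tested). Amot encodes angiomotin, a scaffold of tight junctions and actin that binds YAP and holds it outside the nucleus. The gene lies on chromosome X (145446424 to 145487639, mm10) and stood at 205, 200 and 203 CPM in the vehicle libraries and at 51.9, 44.7 and 56.3 CPM in the forskolin libraries. Every forskolin library was far below every vehicle library, and the mean went from 203 ± 2.37 to 51.0 ± 5.88 CPM, 3.97-fold lower (log2 fold change −1.99, SE 0.0618, adjusted p = 2.07e-14). Ranked by fold change it was number 107 of the 3349 genes that were lower. Amotl2, a paralogue and a known YAP target, stood at 617, 627 and 634 CPM with vehicle and at 369, 357 and 379 CPM with forskolin, a log2 fold change of −0.77 (SE 0.0404, adjusted p = 2.32e-11). Amotl1, the other paralogue, had 418 ± 11.6 CPM with vehicle and 354 ± 4.12 CPM with forskolin, a log2 fold change of −0.24 (adjusted p = 7.03e-05).

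The 3 angiomotin genes thus fell by unequal amounts, and their proportions moved. Their sum per kilobase was 226 ± 2.92 CPM in vehicle libraries and 135 ± 3.40 CPM in forskolin libraries. The share of Amot in it was 13.3%, 12.7% and 12.8% with vehicle and 5.54%, 4.88% and 5.85% with forskolin. The share of Amotl1 went from 20.7% ± 0.371 to 29.4% ± 0.808, and that of Amotl2 from 66.4% ± 0.187 to 65.2% ± 0.334. Each share gave an exact permutation p of 0.1.

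**Figure D2:**
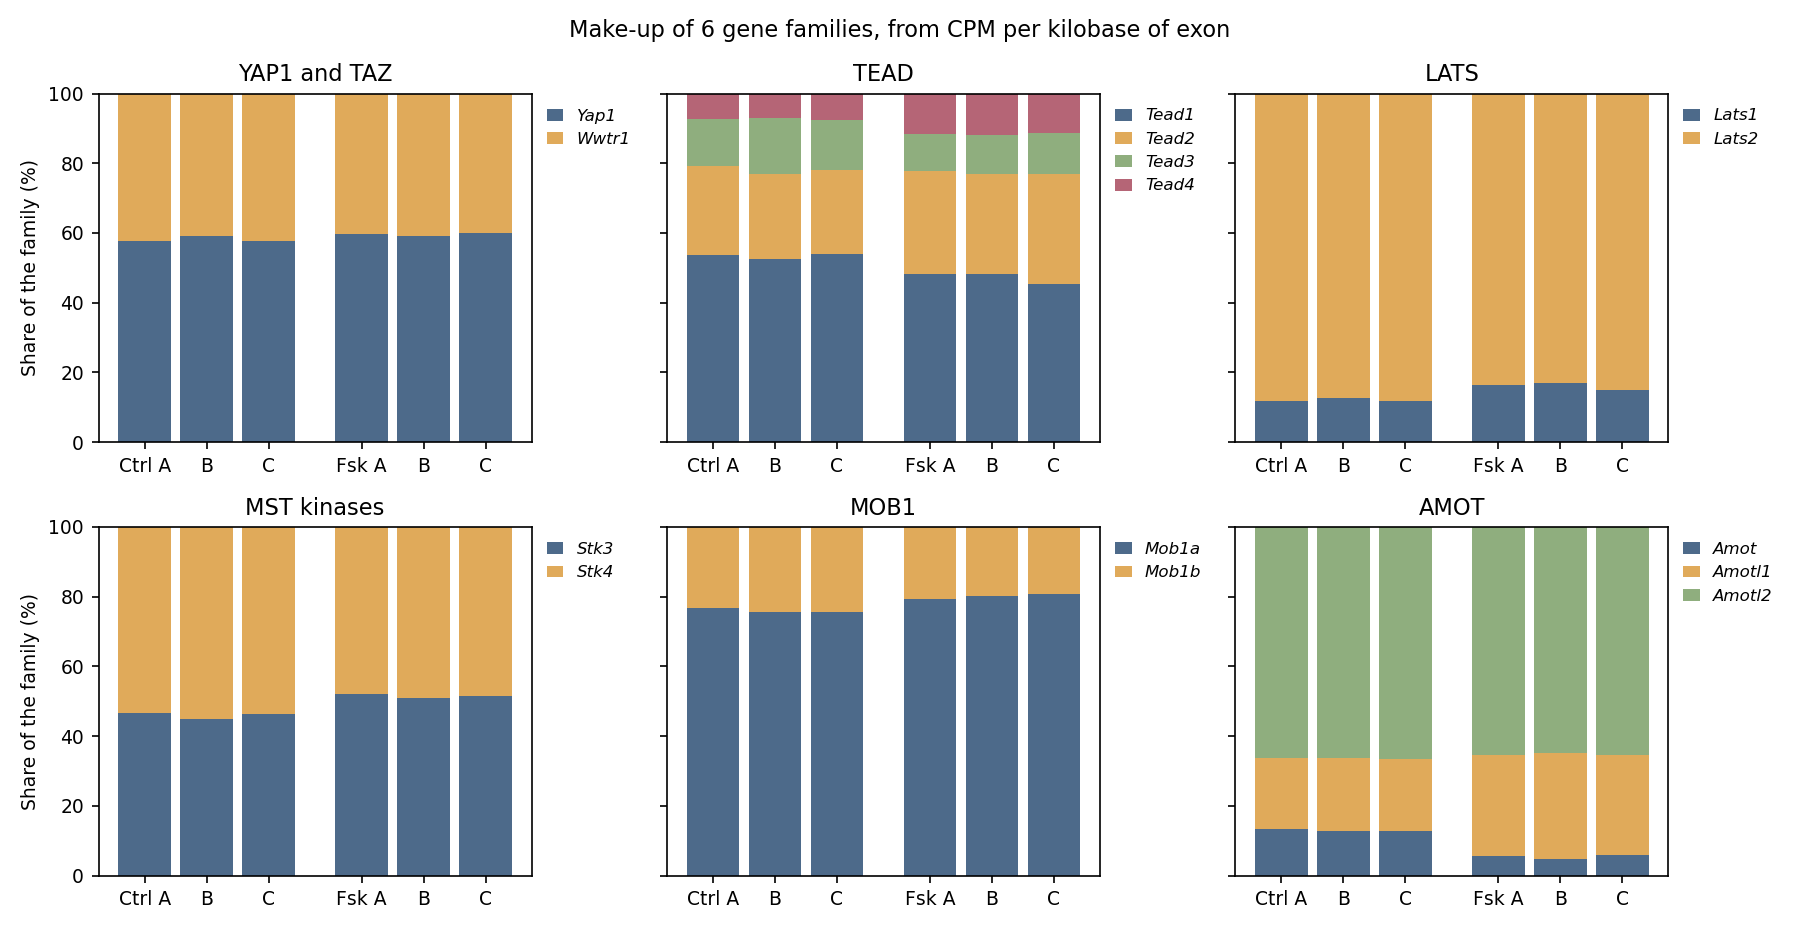
Share of each gene in the summed level of its family (y axis, percent, from CPM per kilobase of exon) in each vehicle (Ctrl) and forskolin (Fsk) library, for 6 families. Amot shrinks from 12.9% to 5.42% of the angiomotin genes, Tead4 grows from 7.28% to 11.6% of the TEAD genes, and Yap1 makes up 58.2% and 59.6% of its pair.

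Ptpn14, the gene of a phosphatase that binds YAP and retains it in the cytoplasm, stood at 149, 168 and 161 CPM with vehicle and at 99.3, 93.5 and 97.1 CPM with forskolin, and it fell by 0.72 (SE 0.0511, adjusted p = 1.36e-09). Nf2 encodes merlin, the membrane-linked activator of the LATS kinases. It did not pass (134 ± 3.74 and 132 ± 2.45 CPM), with an interval of its log2 fold change from −0.11 to 0.07. Over the whole core, 9 of 20 genes were lower, 4 were higher and 7 did not pass, with a median log2 fold change of −0.17. That median was −0.10 without vehicle B and −0.06 with log2 library size as a term, while the number of core genes past the threshold stayed at 13 in both. The 4 core genes that fell by at least 1.5-fold, Amot, Vgll4, Amotl2 and Ptpn14, encode proteins that bind YAP or TEAD and are known mostly as brakes on YAP. Other core genes that restrain YAP did not move as 1 class. Lats2 and Amotl1 were lower, Stk3 and Mob1a were higher, and Lats1, Stk4, Sav1, Mob1b and Nf2 did not pass.

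The target genes were lower in all but 3 cases: 12 of 15 fell (80.0%), 2 rose (13.3%) and Axl did not pass. Of all genes tested 25.1% were lower and 24.8% higher. The median log2 fold change of the targets was −0.37. With vehicle the 5 highest levels among the 35 genes per kilobase of exon were those of target genes, Ccn2 at 421 ± 12.8 CPM, Ccn1 at 323 ± 10.7, Ankrd1 at 299 ± 12.7, and F3 and Axl at 191 ± 4.32 and 191 ± 5.64, the last pair being closer than their spread. Foxf2 was lowest at 2.20 ± 0.155 CPM. The gene with the third-highest level, Ankrd1, showed the smallest decrease among the targets that were lower, as described below.

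**Figure D3:**
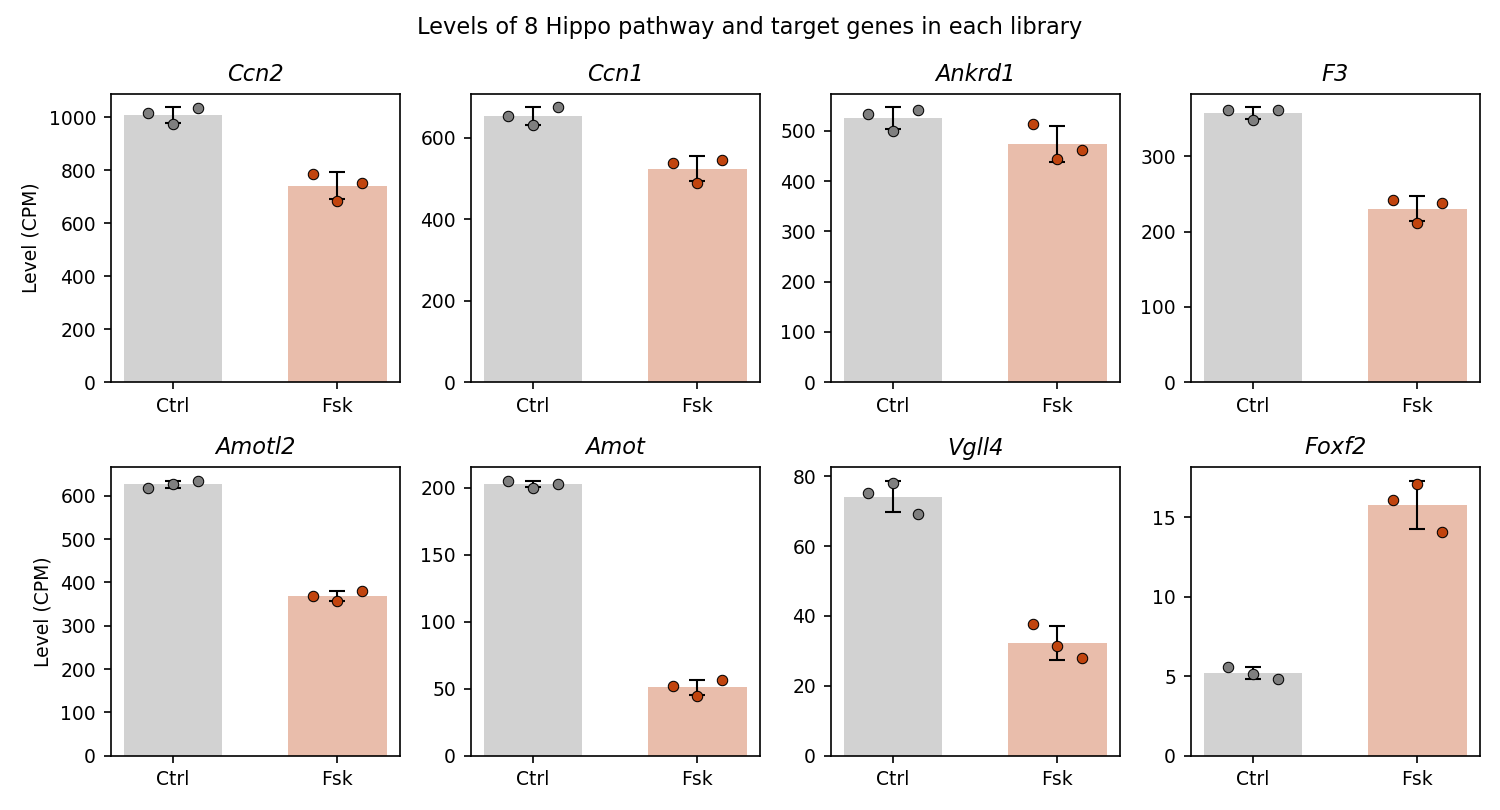
Level in CPM (y axis, from 0) of 8 genes in the 3 vehicle (Ctrl) and 3 forskolin (Fsk) libraries, which are the points in the order A, B, C. Bars are means and error bars 1 SD (n = 3). Amot goes from 203 to 51.0 CPM and Foxf2 from 5.19 to 15.8 CPM with the groups far apart, and Ankrd1 is the 1 gene of the 8 whose groups overlap.

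Ccn1 and Ccn2 encode secreted matricellular proteins (CYR61 and CTGF) that are the most used readouts of YAP, CTGF being a profibrotic factor of stellate cells. Ccn2 stood at 1015, 974 and 1033 CPM with vehicle and at 787, 685 and 752 CPM with forskolin. It fell by 0.44 (SE 0.0492, adjusted p = 5.95e-07), 1.36-fold, with no overlap. Ccn1 stood at 654, 632 and 675 CPM with vehicle and at 539, 490 and 545 CPM with forskolin, a decrease of 0.32 on the log2 scale (log2 fold change −0.32, SE 0.0465, adjusted p = 1.67e-05). Both genes were lower in all 3 forskolin libraries, and in each group library B was the lowest for both. Ccn1 did not pass a test against a 1.2-fold change and Ccn2 did. For Ccn2, 81.0% of its 50-base stretches occur in no other gene, the rest being shared with the gene model Gm15270.

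Ankrd1, which encodes an ankyrin repeat protein of muscle and is another standard YAP readout, overlapped between the groups. It stood at 533, 500 and 542 CPM with vehicle and at 513, 444 and 463 CPM with forskolin, so forskolin A was above vehicle B. Its log2 fold change of −0.15 passed the test (adjusted p = 0.0204), but the call was lost without vehicle A (adjusted p = 0.0825), vehicle C (0.101) or forskolin B (0.124), and when libraries were scaled by their size only (0.0626). With log2 library size as a term its log2 fold change was −0.31 (1.81e-04). The receptor tyrosine kinase gene Axl, a target in cancer cells, stood at 971, 936 and 992 CPM with vehicle and at 1008, 944 and 1000 CPM with forskolin. These overlap, and the interval of its log2 fold change ran from −0.06 to 0.12 (adjusted p = 0.650). With log2 library size as a term the estimate was −0.06 (0.309).

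The other targets that fell have varied roles. F3 encodes tissue factor, the initiator of coagulation, and went from 362, 348 and 362 CPM to 242, 212 and 238 CPM (−0.63, SE 0.0481, adjusted p = 3.72e-09). Ccdc80, which encodes a secreted matrix-associated protein, went from 101, 120 and 112 CPM to 65.6, 72.1 and 77.9 CPM (−0.63, SE 0.0668, adjusted p = 3.62e-07). Fjx1, the gene of a Golgi protein related to the fly kinase four-jointed, went from 25.8, 31.5 and 30.1 CPM to 17.9, 18.9 and 21.0 CPM (−0.60, SE 0.0965, adjusted p = 5.08e-05). These are the 3 targets that fell by at least 1.5-fold, and in none did the groups overlap. Ajuba, whose LIM protein binds and inhibits LATS, stood at 275, 278 and 275 CPM with vehicle and at 187, 198 and 198 CPM with forskolin, a log2 fold change of −0.50 (adjusted p = 9.33e-09). Nuak2, the gene of an AMPK-related kinase that supports actomyosin tension, went from 31.1, 34.5 and 31.5 CPM to 23.9, 20.9 and 24.7 CPM (−0.49, adjusted p = 1.24e-04). Crim1, which encodes a membrane protein that binds BMPs, went from 581 ± 9.14 to 450 ± 14.6 CPM, and Asap1, which encodes an ARF GTPase-activating protein of focal adhesions, from 246 ± 2.16 to 190 ± 7.26 CPM, each with a log2 fold change of −0.37. Smaller decreases were those of Myof, the gene of the membrane repair protein myoferlin (505 ± 11.6 to 441 ± 5.69 CPM, −0.20), and of Dock5, the gene of a Rac activator (132 ± 11.5 to 114 ± 3.63 CPM, −0.21). The call of Dock5 was lost without vehicle B, its highest library at 142 CPM (adjusted p = 0.0510), and with log2 library size as a term (0.201).

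The 2 targets that rose encode gene regulators. Foxf2, a forkhead transcription factor gene, stood at 5.57, 5.16 and 4.84 CPM with vehicle and at 16.1, 17.1 and 14.1 CPM with forskolin. It rose 3.04-fold (log2 fold change 1.60, SE 0.134, adjusted p = 1.51e-08) on 214 counts over the vehicle libraries and 575 over the forskolin libraries. Rbms3, the gene of an RNA-binding protein, went from 80.4, 82.5 and 78.2 CPM to 133, 144 and 132 CPM, a rise of 1.69-fold (0.76, SE 0.0499, adjusted p = 4.98e-10). In both, the lowest forskolin library was above the highest vehicle library. Neither promoter window printed holds a TEAD motif, but only 12.6% of all such windows hold it. Before the start, the lower genes Lats2, Amot, Amotl1, F3 and Myof lack it too.

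Other genes of the pathway and of neighbouring ones were taken as 3 lists, chosen with earlier results of these data known. Beside each list stand the shares over all genes tested, 25.1% lower and 24.8% higher. Of 54 further Hippo regulators, 51 were tested. Of these, 24 were lower (47.1%), 10 were higher (19.6%) and 17 did not pass, with a median of −0.11. The 4 with the smallest adjusted p were Nuak1, an AMPK-related kinase gene (84.1 ± 5.18 to 27.8 ± 0.658 CPM, log2 fold change −1.60, adjusted p = 6.28e-13), Wtip, a LIM protein gene related to Ajuba (76.5 ± 0.422 to 38.8 ± 1.74 CPM, −0.98), and the giant cadherin genes Fat1 (767 ± 69.9 to 396 ± 19.4 CPM, −0.95) and Fat4 (54.4 ± 4.21 to 18.7 ± 3.57 CPM, −1.54). FAT and Dachsous cadherins act as receptor and ligand upstream of the pathway in flies. Looked at together after their values were seen, 5 of the 6 genes of these families were lower: Fat1, Fat3, Fat4, Dchs1 and Dchs2. Dchs1 went from 70.8 ± 6.31 to 51.1 ± 5.98 CPM, while Dchs2 and Fat3 were under 5 CPM in every library and Fat3 overlapped between the groups. Fat2, at 1.02 ± 0.336 and 1.13 ± 0.520 CPM, did not pass.

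The next list, like the targets, was chosen with earlier results of these data known, so its values are no independent support. Of 32 further genes reported to respond to YAP, 28 were tested. Of these, 20 were lower (71.4%), 2 were higher (7.14%) and 6 did not pass, with a median of −0.35 (−0.37 for the 15 targets). The 4 with the smallest adjusted p were Ddah1, an arginine metabolism gene (136 ± 3.86 to 55.9 ± 3.42 CPM, −1.29), the stress-response gene Gadd45b (57.1 ± 2.62 to 10.3 ± 2.87 CPM, −2.48), Pdlim2, a gene of an actin-associated LIM protein (105 ± 3.30 to 48.2 ± 6.64 CPM, −1.12), and Nt5e, which encodes the ectonucleotidase CD73 (269, 276 and 293 CPM with vehicle and 143, 123 and 159 CPM with forskolin, −0.98). The actin-regulated MRTF and SRF pathway shares targets with YAP. Of its 19 genes listed, 12 were lower (63.2%), 3 were higher (15.8%) and 4 did not pass, with a median of −0.20. Its leading genes were the coactivator gene Mrtfa (180 ± 7.97 to 83.3 ± 5.19 CPM, −1.11), Flnc (504 ± 16.4 to 251 ± 21.7 CPM, −1.01), Cnn1 (32.1 ± 3.66 to 15.4 ± 1.18 CPM, −1.06) and Fhl2 (139 ± 3.53 to 95.9 ± 5.88 CPM, −0.54), the last 3 encoding proteins that bind actin or its adhesions. Cnn1, Actg2, Lmod1 and Tagln, all lower, also stand in the vascular smooth muscle list, so the 2 lists are not separate observations.

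**Figure D4:**
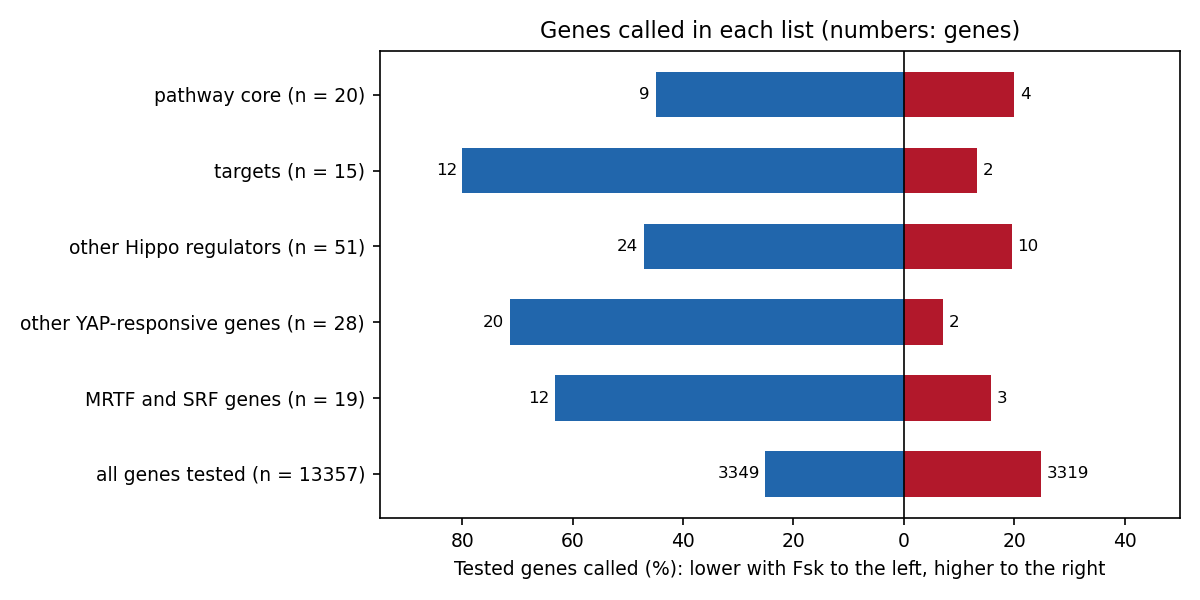
Percent of the tested genes of the core, the targets and 3 further lists (x axis) that were lower with forskolin, to the left in blue, and higher, to the right in red, with the number of genes at each bar and all genes tested at the bottom. The targets, 12 of 15 lower, and the other YAP-responsive genes, 20 of 28 lower, reach farthest to the left of the 5 lists drawn, against 25.1% of all genes tested.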

How the data were processed

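For the 6 libraries of polyadenylated RNA, the authors deposited a table of estimated counts per gene (expected counts, not normalized), with 1 transcript and its exon length per gene. The submitters' processing notes name STAR, HOMER and build mm10, per the labels, with versions and settings not given in the sources used here. Counts come in steps of 0.5, of which 31.8% are not whole, and were rounded before testing. Depth was 10890193 to 15090262.5 counts per library.

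The groups were compared over all genes with edgeR 4.0.16 in R 4.3.3: filterByExpr (minimum count 10, minimum total 15), TMM scaling, and the two-sided quasi-likelihood test with group alone in the model. The Benjamini-Hochberg adjustment ran over 13357 genes, with a threshold of 0.05. The 13357 genes held 99.9% of counts, and the biological coefficient of variation was 4.44%. CPM were computed from the deposited counts, and errors are SDs over 3 libraries. Standard errors and 95% intervals come from the quasi-likelihood statistic. The procedure was tested on simulated data. DESeq2 1.42.0, limma 3.58.1 (voom), other scalings and filters, and leaving out each library were the alternatives. Libraries of a group differed by more than sampling noise, and forskolin libraries more than vehicle libraries. Chi-square per degree of freedom was 1.68 to 2.21 between vehicle libraries and 3.15 to 4.71 between forskolin libraries.

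The members and lists were chosen with earlier results of these data known. All members are named, and of each further list up to 4 tested genes with the smallest adjusted p; other genes are described as chosen after their values were seen, except markers. Older symbols in the table (Cyr61, Ctgf, Mkl1) are given as Ccn1, Ccn2 and Mrtfa. A further list is not reported here. Shared 50-base stretches were counted in GENCODE transcripts.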

Additional observations from a re-analysis of the deposited data

How the results depend on the processing

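Under the 17 alternatives no called member and no summary of the core or the targets changed direction. The balance over all genes, which stands beside the member counts, did change. It was 3349 lower and 3319 higher in the main fit. With library size alone it was 2874 lower and 3988 higher, and with counts not rounded 3329 lower and 3359 higher. The estimates of 4 members that were not called crossed 0: Tead3, −0.20 and then 0.02 with log2 library size as a covariate, Axl, 0.03 and then −0.06 with it, Nf2, −0.02 and then 0.02 with library size alone, and Tead1, −0.00 and then 0.04 in both and 0.00 to 0.02 without vehicle B, forskolin A (0.01) or forskolin C. Of the 27 member calls, 18 held in all 17 (8 core and 10 target genes, 13 lower and 5 higher). Tested against a 1.2-fold change, 2910 of all genes passed in place of 6668, 8 core genes in place of 13, and 5 lower core genes in place of 9. Yap1, Wwtr1, Mob1a, Amotl1, Vgll3, Ccn1 and Myof lost their call there alone. With log2 library size as a covariate 4297 genes passed, and the median log2 fold change was −0.06 for the core in place of −0.17 and −0.43 for the targets in place of −0.37. With library size alone these medians were −0.13 and −0.32. Leaving out 1 library at a time, the core median ran from −0.20 to −0.10 (without vehicle B), the target median from −0.37 to −0.35, and the count over all genes from 5640 to 6800. With the replicate letter as a block 6675 genes passed, 14 core and 14 target genes among them, Tead3 joining (adjusted p = 0.0489). Whether the letters pair the libraries was not settled. Same-letter correlations of deviations from the group means were small, at 0.029, 0.02 and 0.038. Still, no library correlated better with another letter than with its own, forskolin B being level between vehicle A and B. Without a low count filter Tead3 passed too (adjusted p = 0.0248). At an adjusted p under 0.01, 5076 genes passed and Ankrd1 did not. The causes were not tested. Depth limits Foxf2 most, with 214 counts over the vehicle libraries.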
